A study of Rattus norvegicus with 158 samples.

Results

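The genes described are the rat proteasome genes whose symbols begin with Psma, Psmb, Psmc or Psmd followed by a digit, measured in thigh muscle. The match found 37 of the 14217 genes on the arrays that had a probe set with 1 gene symbol, and each gene was read from its probe set with the highest mean over all arrays. They were 7 outer (alpha) and 6 inner (beta) ring subunits of the core particle, 6 ATPases, 3 other subunits of the base (Psmd1, Psmd2 and Psmd4) and 8 subunits of the lid, which together are called the 30 constitutive subunits here. The remaining 7 were the 3 inducible immunoproteasome subunits (Psmb8, Psmb9 and Psmb10), 3 chaperones that assemble the base (Psmd5, Psmd9 and Psmd10), and Psmc3ip, a meiotic recombination factor that shares only the symbol. Psmb6 was left outside the 37 because its probe set is shared with Psmb6l1, and Psma8 and Psmb11 had no probe set named here. The genes were matched by symbol only, whereas the probe set of each was picked by its mean signal. This gene family was chosen with earlier results of these data known.

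Polyadenylated RNA came from thigh muscle of male Sprague Dawley (CD-IGS) rats, bought at 6 to 8 weeks of age and given a compound or its vehicle by oral gavage. There were 158 arrays, 1 for each animal sample: 122 from 21 compounds, 18 Water controls (9 at 3 d and 9 at 5 d), 12 CMC controls (7 at 3 d and 5 at 5 d) and 6 controls given CMC/SDS/Povidone, which no compound shared and which enter no comparison. Each compound had 3 arrays at 3 d and 3 at 5 d, except Dicyclomine (2 and 2), Glyburide (2 and 3) and Paroxetine (3 and 2). In Water, the doses were 645 mg/kg Dicyclomine, 535 mg/kg Trimethadione, 1005 mg/kg Etidronate, 47 mg/kg Dexchlorpheniramine, 2500 mg/kg Gabapentin, 1000 mg/kg Losartan, 230 mg/kg Oxybutynin, 104 mg/kg Paroxetine and 572 mg/kg Phenytoin. In CMC, they were 1000 mg/kg Atenolol, 1200 mg/kg Levosulpiride, 269 mg/kg Chlorpropamide, 132 mg/kg Guanethidine, 1500 mg/kg Glyburide, 750 mg/kg Azaribine, 196 mg/kg Buspirone, 1200 mg/kg Famotidine, 126 mg/kg Flunarizine, 1170 mg/kg Pentoxifylline, 300 mg/kg Spironolactone and 1000 mg/kg Sulpiride. With 1 dose per compound there was no dose series, and compounds of 1 vehicle share the same controls.

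The proteasome is the main protease of the cytosol and nucleus. Its core is a barrel of stacked rings, closed at the ends by alpha subunits and lined inside by beta subunits, of which Psmb5, Psmb6 and Psmb7 carry the active sites. A regulatory particle caps the barrel: a ring of ATPases (the Psmc genes) unfolds the substrate, the base also holds ubiquitin receptors, and the lid removes the ubiquitin chain through the protease Psmd14. In cells exposed to interferon, and constitutively in immune cells, Psmb8, Psmb9 and Psmb10 replace the active-site subunits and change which peptides are cut for antigen presentation. In skeletal muscle the ubiquitin-proteasome system degrades myofibrillar proteins, and in mammalian cells the subunit genes are known to be driven together by the transcription factor Nfe2l1 when proteasome activity is short.

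Values are log2 signals as the authors summarised them, and the number of arrays limits their precision. Array medians lay between 5.69 and 5.89, and correlations between arrays between 0.860 and 0.996. A change below is the log2 difference of treated arrays from the controls of the same vehicle, fitted with the time as a covariate in limma across all 14217 genes, and a gene was called when its Benjamini-Hochberg adjusted p was at most 0.01 and its change at least 1.5-fold. Muscle markers were high in every array used for the main result (mean log2 signal 13.9 to 14.1 in Dicyclomine and 14.0 to 14.1 in the Water controls). Among them Pvalb changed by -0.53 in Dicyclomine (limma adjusted p = 0.005318, under the fold threshold) and the others by -0.009 to 0.13. Some arrays stood apart. Glyburide 5 d replicate 2, Chlorpropamide 3 d replicate 2 and Atenolol 3 d replicate 1 were the 3 arrays in which the 3' Gapdh control probe set exceeded the 5' one by over 1 on the log2 scale (3.02, 1.58 and 1.26, against 0.10 to 0.28 in the Water and CMC controls). Other arrays exceeded the control range by less, among them the other Glyburide arrays (0.29 to 0.42) and the 5 d Atenolol arrays (0.415, 0.375 and 0.322). CMC 5 d replicate 2, Glyburide 3 d replicate 1 and Pentoxifylline 3 d replicate 3 carried high levels of immune cell markers. Within Dicyclomine and Trimethadione, Dicyclomine 3 d replicate 2 and Trimethadione 3 d replicate 2 did not resemble the other arrays of their label in these genes, as described below. Each sample title holds a number after its study code, but the labels do not say that it names an animal. The p-values therefore measure the spread between these samples.

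The promoters of 6 members are shown because the subunits read by them carry the results: the 3 members with the largest Dicyclomine changes (Psmd3, Psmd2 and Psmd8, all of the regulatory particle), the constitutive active-site gene Psmb5, and 2 immunoproteasome genes. Each runs from 250 bases before to 50 bases after a start listed in the RefSeq table for GRCr8, so that the start is base 251. The Psmd3 gene is annotated from base 84139249 on, so its window lies inside the gene. Its marked match lies 13 bases after the start used. Capitals mark 2 motifs searched on both strands: TGACNNNGC, the core of the antioxidant response element at which Nfe2l1 and Nfe2l2 are known to bind, and AAANNGAAA, the core of the interferon-stimulated response element.
Psmd3 (chr10:84139688-84139987, plus strand): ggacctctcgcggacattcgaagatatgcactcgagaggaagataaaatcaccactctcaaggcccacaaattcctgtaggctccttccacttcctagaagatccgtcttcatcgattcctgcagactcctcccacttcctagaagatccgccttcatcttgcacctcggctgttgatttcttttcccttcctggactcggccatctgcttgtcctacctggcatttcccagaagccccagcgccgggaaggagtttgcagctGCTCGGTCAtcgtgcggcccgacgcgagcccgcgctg
Psmd2 (chr11:93763339-93763638, minus strand, no match to either motif): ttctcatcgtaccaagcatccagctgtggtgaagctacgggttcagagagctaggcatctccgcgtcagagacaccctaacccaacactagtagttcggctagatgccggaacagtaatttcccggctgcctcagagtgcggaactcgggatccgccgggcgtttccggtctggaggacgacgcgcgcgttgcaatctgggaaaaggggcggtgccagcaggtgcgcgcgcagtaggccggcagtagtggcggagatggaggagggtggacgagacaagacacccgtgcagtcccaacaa
Psmd8 (chr1:93608640-93608939, minus strand, no match to either motif): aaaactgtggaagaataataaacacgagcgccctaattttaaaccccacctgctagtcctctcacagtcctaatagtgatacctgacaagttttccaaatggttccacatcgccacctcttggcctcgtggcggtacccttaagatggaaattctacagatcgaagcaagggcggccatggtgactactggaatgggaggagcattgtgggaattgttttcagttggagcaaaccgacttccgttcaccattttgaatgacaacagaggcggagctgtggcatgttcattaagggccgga
Psmb5 (chr15:32047330-32047629, minus strand): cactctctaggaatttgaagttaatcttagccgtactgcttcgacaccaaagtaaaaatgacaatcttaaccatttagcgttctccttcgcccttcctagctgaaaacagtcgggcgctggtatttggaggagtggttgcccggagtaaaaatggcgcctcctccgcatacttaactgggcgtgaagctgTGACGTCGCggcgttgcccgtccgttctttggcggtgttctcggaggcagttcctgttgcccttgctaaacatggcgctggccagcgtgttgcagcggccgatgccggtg
Psmb8 (chr20:4656982-4657281, minus strand): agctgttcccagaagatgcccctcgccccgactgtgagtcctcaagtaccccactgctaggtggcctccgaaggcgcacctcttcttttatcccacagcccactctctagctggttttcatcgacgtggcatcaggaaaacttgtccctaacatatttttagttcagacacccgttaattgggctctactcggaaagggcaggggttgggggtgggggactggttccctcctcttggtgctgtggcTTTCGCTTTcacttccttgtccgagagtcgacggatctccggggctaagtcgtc
Psmb10 (chr19:50743243-50743542, minus strand): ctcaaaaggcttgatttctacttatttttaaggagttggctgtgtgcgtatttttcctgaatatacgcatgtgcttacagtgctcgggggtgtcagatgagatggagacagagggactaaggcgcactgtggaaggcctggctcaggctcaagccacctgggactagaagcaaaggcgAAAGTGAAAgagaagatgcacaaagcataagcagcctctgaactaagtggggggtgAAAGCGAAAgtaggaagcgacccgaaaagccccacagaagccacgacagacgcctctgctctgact

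The promoter table held 33 of the 37 genes, among them 26 of the 30 constitutive subunits and all 3 immunoproteasome subunits. TGACNNNGC occurred in 5 of the 26 constitutive promoters (19.2%: Psma3, Psmb2, Psmb5, Psmd1 and Psmd3) against 12.1% of 33469 rat promoters of the same length. AAANNGAAA occurred in 5 of 26 (19.2%: Psma2, Psma4, Psmb3, Psmb4 and Psmd7) and in 2 of the 3 immunoproteasome promoters (Psmb8 and Psmb10) against 11.8% of all. The CCAAT box was in 14 of 26 (53.8%) against 37.5% of all, and the heat shock element core GAANNTTC in 2 of 26 (7.69%) against 8.59%. These are matches of letters in a window and were not tested. Like that of Psmd3, the windows of Psma6, Psmb1 and Psmd11 lay inside the annotated genes.

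Dicyclomine, a muscarinic antagonist, was the only compound in which most constitutive subunits were called. Single arrays of Trimethadione and Etidronate were also high in them, as described below. In Dicyclomine, 26 of the 30 constitutive subunits were called higher and none lower against the 18 Water controls. The median change was 0.78 over all 30 against 0.02 over all genes. Calls of higher signal made up 2.88% of all genes in this comparison. All 8 lid subunits, all 3 non-ATPase base subunits, 5 of 6 ATPases, 6 of 7 alpha subunits and 4 of 6 beta subunits were called, whereas the immunoproteasome subunits (changes from -0.11 to -0.01) and the assembly chaperones (0.32 to 0.57) were not. In bulk tissue, fewer cells of a type and less RNA per cell cannot be told apart.

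**Figure D1:**
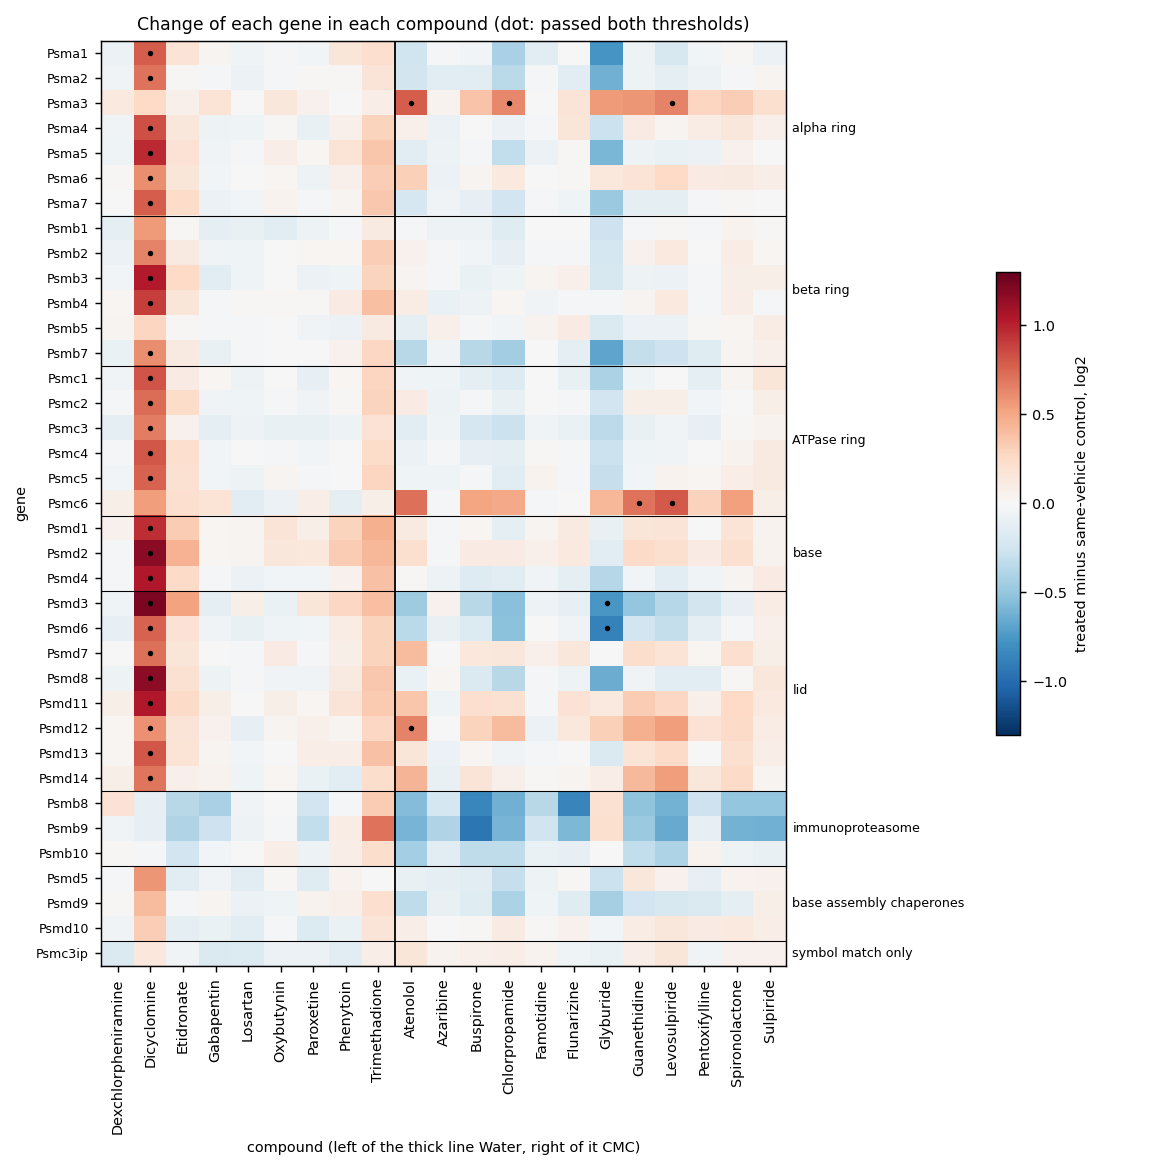
Log2 change of each of the 37 genes (rows, grouped by part of the particle) in each of the 21 compounds (columns, Water compounds left of the thick line and CMC compounds right of it), with a dot where a gene passed both thresholds. The Dicyclomine column holds 26 dots, and the other columns hold 8 in all.

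In the lid, Psmd3, a structural subunit, had log2 signals of 10.01 and 9.19 in the 3 d Dicyclomine arrays and 10.77 and 11.07 in the 5 d arrays, against a lowest of 8.67, a median of 9.07 and a highest of 9.21 in the Water controls. In all, 3 of the 4 treated arrays lay above every control and 3 d replicate 2 lay among them. The change was 1.23 (SE 0.17, adjusted p = 4.971e-05 in limma). Psmd8, another structural lid subunit, gave 10.81 and 9.66 at 3 d and 11.22 and 11.50 at 5 d against 9.41, 9.58 and 10.28 in the controls, a change of 1.17 (SE 0.17, limma adjusted p = 8.677e-05). Psmd14, the deubiquitinase of the lid, gave 10.49 and 9.87 at 3 d and 11.08 and 11.01 at 5 d against 9.63, 9.93 and 10.23, a change of 0.69 (SE 0.15, limma adjusted p = 0.001933). For these genes too only 3 d replicate 2 overlapped the controls. The other lid subunits changed by 1.05 (Psmd11, which clamps the lid to the core), 0.81 (Psmd13), 0.76 (Psmd6), 0.71 (Psmd7, the partner of Psmd14) and 0.59 (Psmd12).

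In the base, Psmd2, a scaffold to which ubiquitin-like domains dock, gave 11.77 and 11.23 at 3 d and 12.73 and 12.57 at 5 d, and the Water controls a lowest of 10.75, a median of 10.89 and a highest of 11.09. It was the 1 gene of the 37 in which all 4 treated arrays lay above all 18 controls, as 0.83% of all genes did. Its change was 1.17 (SE 0.14, limma adjusted p = 1.145e-05). Psmd1, the second large scaffold of the base, gave 10.14 and 9.74 at 3 d and 11.07 and 10.93 at 5 d against 9.27, 9.49 and 9.92, a change of 0.96 (SE 0.15, limma adjusted p = 0.0001106). Psmd4, a ubiquitin receptor, changed by 1.04.

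**Figure D2:**
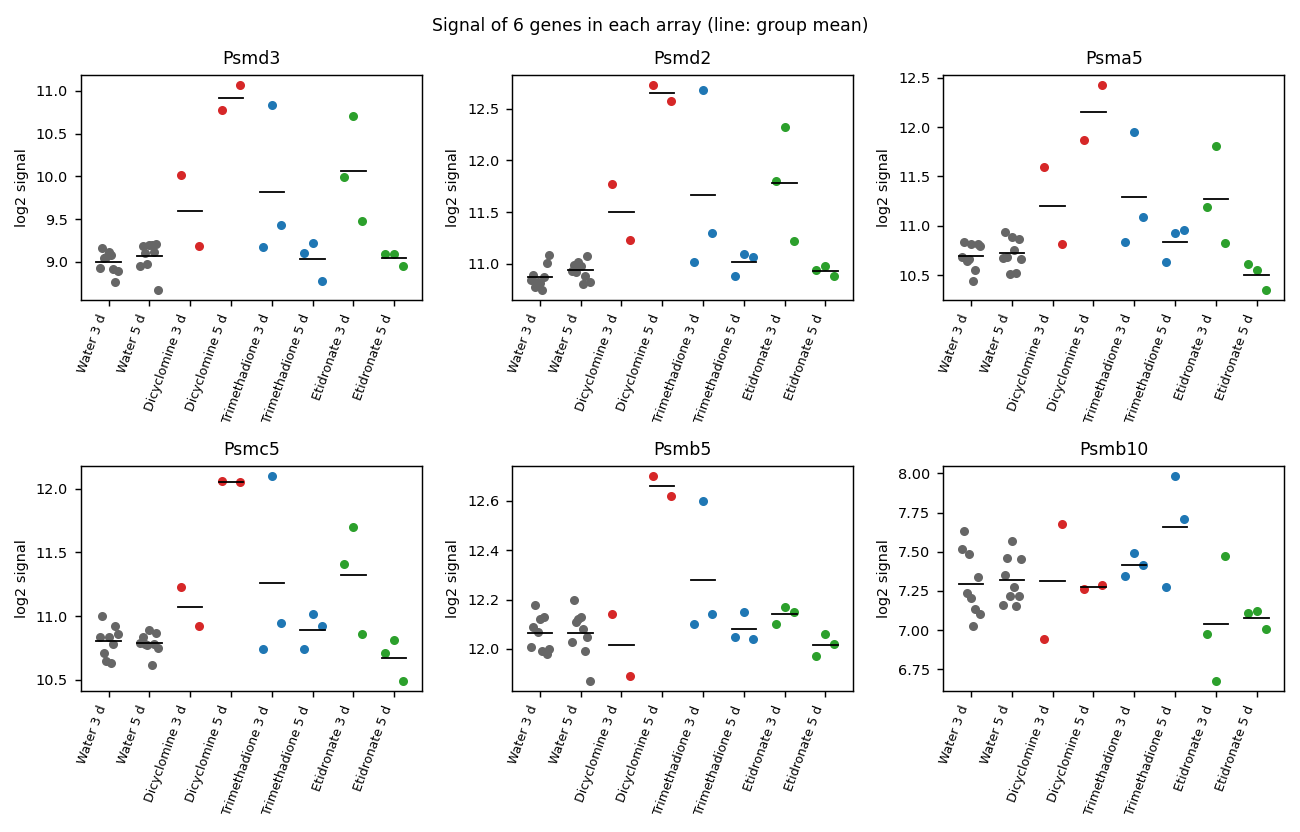
Log2 signal of 6 genes in each array of the groups named on the horizontal axis, with a line at each group mean. In Psmd3 the 5 d Dicyclomine arrays (10.77 and 11.07), 1 of the 3 d Dicyclomine arrays (10.01), Trimethadione 3 d replicate 2 (10.83) and the 3 d Etidronate arrays (9.48 to 10.71) lie above the Water controls, while in Psmb10 the Dicyclomine arrays spread around them.

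Of the ATPases, which pull the substrate into the core, Psmc5 gave 11.23 and 10.92 at 3 d and 12.06 and 12.05 at 5 d against 10.62, 10.79 and 11.00 in the controls, a change of 0.77 (SE 0.13, limma adjusted p = 0.0002182). Psmc2 gave 12.45 and 11.61 at 3 d and 12.77 and 12.86 at 5 d against 11.52, 11.71 and 11.91, a change of 0.72 (SE 0.12, limma adjusted p = 0.0002378). Again the array that overlapped the controls was 3 d replicate 2. Psmc1 (0.82), Psmc4 (0.80) and Psmc3 (0.66) were also called. Psmc6 changed by 0.54 (limma adjusted p = 0.02058) and was not called, and its other 2 probe sets gave 0.51 and 0.22.

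Among the alpha subunits, which form the gate of the barrel, Psma5 gave 11.60 and 10.81 at 3 d and 11.87 and 12.43 at 5 d against a control range of 10.44 to 10.94 with a median of 10.68. Its change was 0.97 (SE 0.15, limma adjusted p = 0.0001102). Psma1 gave 11.38 and 10.67 at 3 d and 11.59 and 11.77 at 5 d against 10.38, 10.59 and 10.78, a change of 0.79 (SE 0.11, limma adjusted p = 5.558e-05). In both, 3 treated arrays lay above every control. Psma4 (0.84), Psma7 (0.78), Psma2 (0.71) and Psma6 (0.60) were called, and Psma3 was not (0.26, limma adjusted p = 0.1737). The probe set that Psma3 shares with Psma3l changed by 0.65, and the signals of these near-identical copies cannot be told apart there.

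Among the beta subunits, Psmb3 changed by 1.03 and Psmb4 by 0.90. Psmb4, a structural subunit, gave 12.43 and 11.83 at 3 d and 13.12 and 13.13 at 5 d against 11.34, 11.74 and 11.95 in the controls (SE 0.15, limma adjusted p = 0.0001908). Psmb7, which carries the trypsin-like site, gave 11.98 and 11.71 at 3 d and 12.63 and 12.56 at 5 d against 11.47, 11.62 and 11.77, a change of 0.61 (SE 0.10, limma adjusted p = 0.0002465). Psmb2 changed by 0.65. The other 2 were not called. Psmb1 changed by 0.56 with an adjusted p of 0.001323 in limma, but its 1.47-fold change was under the threshold. Psmb5, which carries the chymotrypsin-like site, gave 12.14 and 11.89 at 3 d and 12.70 and 12.62 at 5 d against 11.87, 12.08 and 12.20, a change of 0.28 (limma adjusted p = 0.03724), so that only its 5 d arrays lay above the controls. Its other 2 probe sets gave 0.09 each. The probe set shared by Psmb6 and Psmb6l1 changed by 0.39, with 1 or more treated arrays inside the control range (lowest treated signal 10.85, highest control 11.08).

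The probe set chosen mattered for some genes. The other probe sets of Psmd11 changed by 1.09 and 0.14, that of Psmd7 by 0.77, those of Psmd14 by 0.76 and 0.67, and that of Psmc4 by 0.07. Of the 37 genes, 7 had more than 1 probe set.

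The Dicyclomine changes differed between the times. At 5 d alone, 28 of the 30 constitutive subunits and the chaperones Psmd9 and Psmd10 were called higher (30 of 37 genes, against 4.99% of all genes), with a constitutive median of 1.21. At 3 d alone none of the 37 was called (0.0352% of all genes were), with a constitutive median of 0.30 and 29 of 30 changes above 0. Both 5 d arrays exceeded all 9 of the 5 d Water controls in 30 of 30 constitutive subunits, against 13.8% of all genes, and in 0 of 3 immunoproteasome subunits. Psmd2 had the change nearest to a call at 3 d (0.62, limma adjusted p = 0.0359). The change was larger at 5 d than at 3 d for 13 genes in a test of the difference itself (1.07% of all genes): Psmb3 by 1.44, Psmd4 by 1.31, Psmd3 by 1.25, Psma4 by 1.20, Psmc4 by 1.19, Psma7 by 1.13, Psmd2 by 1.09, Psmd13 by 1.08, Psmc5 by 1.00, Psmc1 by 0.96, Psmd6 by 0.79, Psmb7 by 0.73 and Psmb5 by 0.65. With 2 arrays at each time this difference rested on single arrays: leaving out 1 treated array gave from 6 genes (without 3 d replicate 2) to 23 (without 3 d replicate 1), with 8 without 5 d replicate 1 and 7 without 5 d replicate 2. None was called with the controls of the same extraction batch alone. The shares of all genes called in the fits with 1 array left out are not given here.

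**Figure D3:**
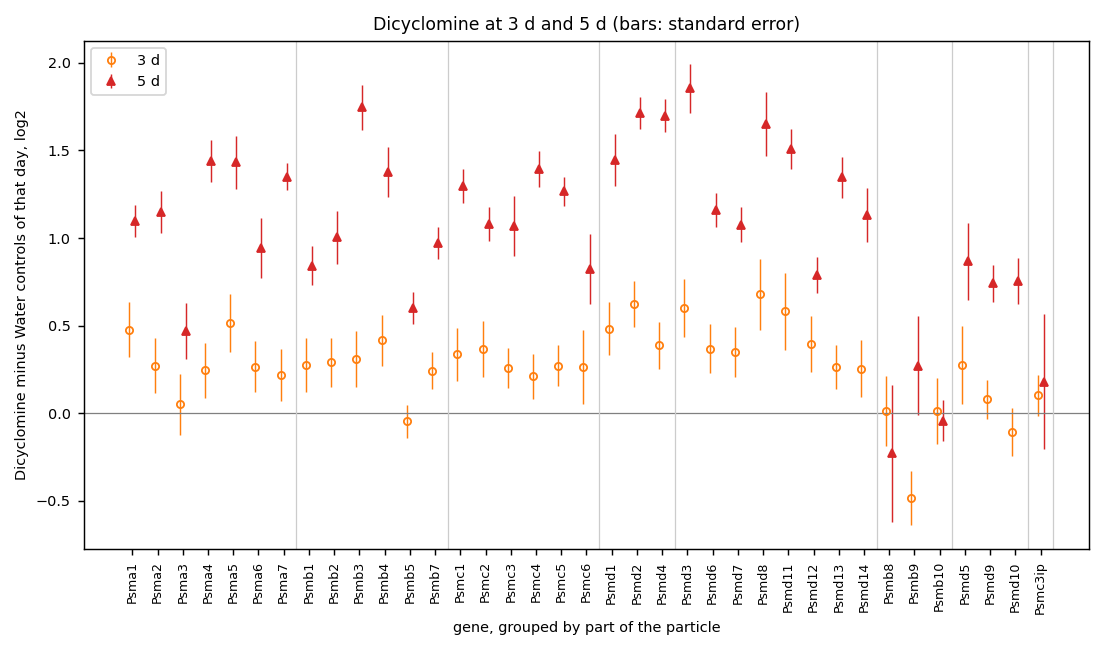
Log2 change of each gene in Dicyclomine against the Water controls of the same day at 3 d (open circles) and 5 d (triangles), with bars for the standard error and 2 treated arrays at each time. The 5 d values lie above the 3 d values in all 30 constitutive subunits, while Psmb8, Psmb9 and Psmb10 lie between -0.48 and 0.27.

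The median over the 30 constitutive subunits, taken for each array as the difference from the control means, shows how single arrays varied. It was 0.59 and 0.10 in the 3 d Dicyclomine arrays and 1.16 and 1.23 in the 5 d arrays, against -0.18 to 0.15 in the Water controls. The highest value of all 122 treated arrays was not a Dicyclomine array but Trimethadione 3 d replicate 2, at 1.28, in which 29 of 30 constitutive subunits lay above all 18 Water controls (18.0% of all genes did). Trimethadione is an anticonvulsant given in the same study as Dicyclomine. That array gave 10.83 for Psmd3 and 12.68 for Psmd2, against 9.17 and 9.44 for Psmd3 in the other 3 d Trimethadione arrays and 8.77 to 9.22 in the 5 d arrays. Dicyclomine 3 d replicate 2 thus lay with the controls and Trimethadione 3 d replicate 2 with the 5 d Dicyclomine arrays. The labels are kept here as given, and whether these libraries match them was not tested.

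Without Dicyclomine 3 d replicate 2, 29 genes were called, 28 of them constitutive, with a constitutive median of 0.99. Without 5 d replicate 2, 15 were called, the fewest when 1 Dicyclomine or Water control array was left out. The shares of all genes called in these fits are not given here, so the counts cannot be set against them. In Trimethadione as labelled, none of the 37 genes was called, although all 30 constitutive changes were above 0 with a median of 0.29 and 21 were at an unadjusted p under 0.05. Without its 3 d replicate 2 the median was 0.09, with 26 of 30 above 0 and 9 at an unadjusted p under 0.05.

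**Figure D4:**
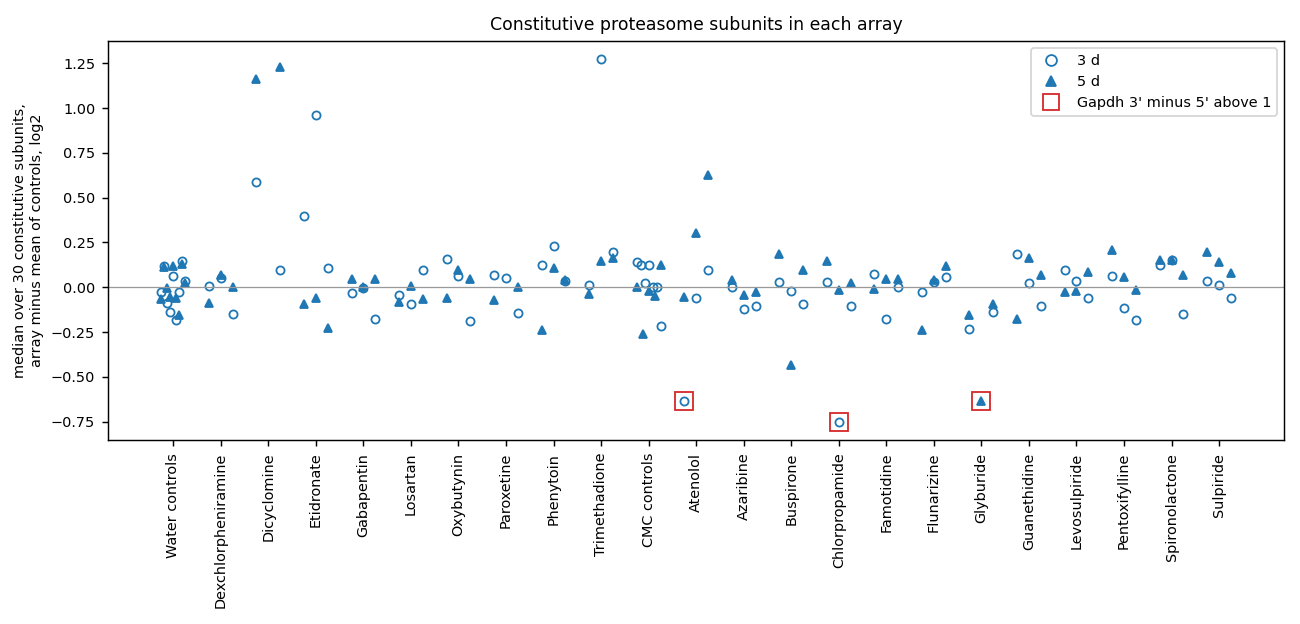
Median over the 30 constitutive subunits of the log2 difference of each array from the control means of its vehicle, by compound, with open circles for 3 d, triangles for 5 d and squares around the 3 arrays whose Gapdh 3' minus 5' difference was over 1. Trimethadione 3 d replicate 2 (1.28) and the 5 d Dicyclomine arrays (1.23 and 1.16) are the highest, and the 3 squared arrays are the lowest (-0.75, -0.64 and -0.63).

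Of the 122 treated arrays, 8 had a constitutive median of 0.30 or more. Beside the 3 Dicyclomine arrays and the Trimethadione array, these were Etidronate 3 d replicate 2 (0.96, 28 of 30 subunits above all controls, against 12.1% of all genes) and replicate 1 (0.40, 20 of 30 against 11.1%), and Atenolol 5 d replicate 3 (0.63, 23 of 30 against 21.6%) and replicate 2 (0.30, 17 of 30 against 19.8%). Etidronate is a bisphosphonate. Its Psmd3 signals were 10.00, 10.71 and 9.48 at 3 d and 9.09, 9.10 and 8.96 at 5 d, and its Psmd2 signals 11.80, 12.32 and 11.22 at 3 d and 10.94, 10.98 and 10.88 at 5 d. The 3 d arrays were thus high in both genes and the 5 d arrays lay within the control range of both. Over the constitutive subunits, Etidronate 5 d replicate 3 had a median of -0.23, under the lowest Water control (-0.18). In it 14 of 30 lay below all controls, against 17.0% of all genes, and its Gapdh difference was 0.30. The part of that array in the difference between the times was not tested. No gene of the 37 was called in Etidronate (all 30 constitutive changes above 0, median 0.18, 7 at an unadjusted p under 0.05), and without 3 d replicate 2 the median was 0.02 with 21 of 30 above 0. The difference between 5 d and 3 d was below 0 for all 30 constitutive subunits, with a median of -0.68 and 26 at an unadjusted p under 0.05, and none passed the threshold. Without 3 d replicate 2 it was below 0 for 28 of 30, with a median of -0.45 and 23 at an unadjusted p under 0.05. At the low end, Chlorpropamide 3 d replicate 2 (-0.75), Atenolol 3 d replicate 1 (-0.64) and Glyburide 5 d replicate 2 (-0.63) were the 3 arrays with the high Gapdh ratio, whose part in these values was not tested. Buspirone 5 d replicate 2 (-0.43) had a Gapdh difference of 0.26, within the control range. At the high end, Atenolol 5 d replicates 3 and 2 had Gapdh differences of 0.32 and 0.37, above that range.

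All Dicyclomine arrays came from 1 extraction batch, which also held 5 Water controls, and the Dicyclomine result was recomputed with this in view. With the batch as a block, 23 of the 37 genes were called higher (2.15% of all genes), with 30 of 30 constitutive changes above 0 and a median of 0.72. Psmd2 changed by 1.13 and Psmd3 by 1.14 there. Against the 5 controls of the same batch no gene of any kind passed the threshold. All 30 constitutive changes were above 0, with a median of 0.83, and 28 passed an unadjusted p of 0.05. Relative to the 4 controls of the same study, also with no gene called, all 30 were above 0, with a median of 0.82 and 27 at an unadjusted p under 0.05.

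Against the arrays of the other 8 compounds given in Water, 25 genes were called higher in Dicyclomine, 24 of them constitutive (1.94% of all genes), with a constitutive median of 0.72. Psmd2 was higher by 0.98 (limma adjusted p = 0.0007555) and Psmd3 by 1.08 (limma adjusted p = 0.002185). This count fell to 0 with the batch as a block, to 2 without 5 d replicate 1 and to 0 without 5 d replicate 2. The shares of all genes called in these fits are not given here. Against Trimethadione alone no gene was called, with 30 of 30 constitutive changes above 0, a median of 0.48 and 1 at an unadjusted p under 0.05. Without Trimethadione 3 d replicate 2 the median was 0.73 and 28 were at an unadjusted p under 0.05, again with no call.

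Markers of other cells moved in the same arrays. The mean log2 signal of the red blood cell markers was 7.30 to 8.99 in Dicyclomine and 7.50 to 9.08 in Trimethadione against 9.07 to 10.4 in the Water controls, and both of the measured markers, Hbb (-1.75) and Alas2 (-1.43), were called lower in Dicyclomine. Among the Trimethadione arrays the lowest value, 7.50, was that of 3 d replicate 2. Hbb was also called lower in Azaribine (-1.89), Levosulpiride (-1.85), Glyburide (-1.72), Atenolol (-1.56), Trimethadione (-1.21) and Guanethidine (-0.955). In those compounds few or none of the 37 genes were called higher. Levosulpiride 5 d replicate 1 had a red marker mean of 7.44 and a constitutive median of -0.02, and Atenolol 5 d replicate 3 had 7.98 and 0.63. The tendon markers Fmod and Tnmd had changes of -2.32 and -2.67 in Dicyclomine that were not called. Fmod also changed by -2.79 in Levosulpiride (called), -2.36 in Trimethadione, -2.27 in Glyburide and -2.145 in Atenolol. The part of these markers in the proteasome result was not tested. Immune cell markers overlapped between Dicyclomine (6.31 to 6.62) and its controls (5.98 to 6.84), and the Gapdh difference of 0.15 to 0.22 in Dicyclomine lay within the 0.10 to 0.27 of the Water controls.

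Other proteasome factors changed in part. Of 14 activators, assembly factors and associated proteins, 3 were called higher in Dicyclomine and none lower, where 2.88% of all genes were called higher. Psme4, an activator that caps the core without ATP, gave 12.08 and 10.70 at 3 d and 12.16 and 12.06 at 5 d against 10.06 to 11.06 in the Water controls, a change of 1.21 (SE 0.17, limma adjusted p = 4.441e-05). Trimethadione 3 d replicate 2 gave 12.21 for it. For that gene 3 of the 4 Dicyclomine arrays lay above the controls. Psmg3, a chaperone of core assembly, gave 8.79 and 8.47 at 3 d and 8.56 and 9.36 at 5 d against 7.59, 7.73 and 8.60 (lowest, median and highest control), a change of 0.89 (SE 0.17, limma adjusted p = 0.0007959) with 2 arrays inside the control range. Usp14, a deubiquitinase bound to the base, gave 11.24 and 10.80 at 3 d and 11.87 and 11.97 at 5 d against 10.62, 10.83 and 11.11, a change of 0.66 (SE 0.13, limma adjusted p = 0.0008213). Adrm1, a ubiquitin receptor, had a change of 1.10 that was not called (limma adjusted p = 0.02008). The interferon-inducible activator subunits Psme1 and Psme2 had changes of 0.09 and 0.05, and the assembly factor Pomp 0.30.

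Of 17 genes of the ubiquitin, Vcp and Nfe2l1 pathway that feeds the proteasome, 5 were called higher in Dicyclomine (2.88% of all genes were) and none lower. Nploc4, an adaptor of the Vcp unfoldase, gave 10.21 and 9.32 at 3 d and 10.61 and 10.75 at 5 d, with 10.56 in Trimethadione 3 d replicate 2, against 8.89 to 9.34 in the Water controls. Its change was 1.07 (SE 0.14, limma adjusted p = 2.12e-05). Ddi2, a protease that activates Nfe2l1, gave 9.46 and 8.80 at 3 d and 8.82 and 8.67 at 5 d against 7.15, 8.01 and 8.31 (lowest, median and highest control). All 4 arrays thus lay above every control, as they did in 0.83% of all genes (change 1.01, SE 0.18, limma adjusted p = 0.0004669). Nsfl1c, a Vcp cofactor, gave 9.97 and 9.30 at 3 d and 10.27 and 10.55 at 5 d against 9.03, 9.24 and 9.45, a change of 0.78 (SE 0.12, limma adjusted p = 0.0001186). Ubqln2, a shuttle for ubiquitinated proteins, gave 10.05 and 9.47 at 3 d and 9.92 and 10.44 at 5 d against 9.03, 9.22 and 9.71, a change of 0.70 (SE 0.13, limma adjusted p = 0.0004794). In these last 2 genes the overlap was again that of 3 d replicate 2. Fbxo32, a muscle ubiquitin ligase of atrophy that was singled out after its values were seen, changed by 1.70 (SE 0.36, limma adjusted p = 0.001785). Its signals did not follow the order of the subunits: 9.25 and 6.80 at 3 d and 6.67 and 8.56 at 5 d, against 5.28 to 7.29 in the Water controls and 7.11 in Trimethadione 3 d replicate 2. Trim63, the other muscle ligase, had a change of 0.20. Vcp itself had 0.56 (limma adjusted p = 0.001575, 1.47-fold, under the fold threshold) and Nfe2l1 0.67 (limma adjusted p = 0.043).

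The constitutive subunits varied together across arrays. As a description over the 36 controls, after subtraction of group means, the median correlation of the 435 pairs of constitutive subunits was 0.54, and over all 158 arrays 0.75. Pairs of a constitutive and an immunoproteasome subunit had a median of -0.08 in controls and -0.11 over all arrays, and the immunoproteasome subunits among themselves 0.80 and 0.70. These arrays share batches and normalization. Over all arrays, Psma5 and Psmc1 followed the constitutive median most closely (0.94 each), and Psma3 (0.11), Psmc6 (0.28), Psmd12 (0.43) and Psmb5 (0.58) least. The order differed over the 36 controls, where Psmd3 (0.32) and Psmd8 (0.36) followed it least and Psma3 and Psmd12 had 0.69 and 0.76.

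The genes outside the 37 whose signals were most like the constitutive median over the 158 arrays were Ubfd1 (Pearson r of 0.91), Plaa (0.90), Cct4 (0.86), Cops5 (0.85) and Spryd7 (0.85). Ubfd1, a ubiquitin-domain protein, gave 8.19 and 7.68 at 3 d and 9.61 and 9.39 at 5 d in Dicyclomine, 9.86 in Trimethadione 3 d replicate 2 and 7.34 to 7.85 in the Water controls. In Dicyclomine the values were 1.58 for Spryd7, 1.11 for Ubfd1, 1.06 for Plaa, 0.57 for Cct4 and 0.52 for Cops5. The Dicyclomine arrays were among those used to choose these genes, so these values describe the choice and are no separate result. Over the 36 controls alone the most alike were other genes, Tsr3 (0.93), Emc7 (0.92), Tmem117 (0.90), Znhit6 (0.89) and Plgrkt (0.88), none of which was called in Dicyclomine.

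In the other 20 compounds few of the genes were called. In 15 compounds there was none, and the other 5 were all given in CMC. Psma3 rose in Atenolol, a beta blocker (0.79, SE 0.096, limma adjusted p = 7.63e-05), in Levosulpiride, a dopamine antagonist (0.64, SE 0.091, limma adjusted p = 0.0001098), and in Chlorpropamide, a sulfonylurea (0.63, SE 0.082, limma adjusted p = 0.000208). Its lowest, median and highest log2 signals were 9.47, 9.68 and 10.00 in Atenolol, 9.33, 9.58 and 9.84 in Levosulpiride and 9.44, 9.50 and 9.73 in Chlorpropamide, against 8.56, 8.96 and 9.17 in the CMC controls. The groups did not overlap, with all arrays above all CMC controls in 1.63% of all genes in Atenolol, 2.2% in Levosulpiride and 1.15% in Chlorpropamide. The probe set shared with Psma3l had changes of the opposite sign in the same compounds (-0.45, -0.33 and -0.43). Psma3 also changed by 0.57 in Guanethidine (limma adjusted p = 0.0005931) and 0.56 in Glyburide (limma adjusted p = 0.005442), both under the fold threshold. In Sulpiride and Famotidine, whose extraction batches held CMC controls, it changed by 0.20 and 0.006 and was not called. In Spironolactone, with 5 of 6 arrays in a batch that held CMC controls, it changed by 0.32 (limma adjusted p = 0.05543), also without a call.

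Psmc6 rose in Levosulpiride (0.80, SE 0.16, limma adjusted p = 0.001708) and in Guanethidine, an adrenergic neuron blocker (0.71, SE 0.16, limma adjusted p = 0.005521). Its signals were 10.29, 10.48 and 10.65 (lowest, median and highest) in Levosulpiride and 10.00, 10.45 and 10.68 in Guanethidine against 9.08, 9.75 and 10.49 in the CMC controls, so that the groups overlapped. Psmd12 rose in Atenolol by 0.64 (SE 0.13, limma adjusted p = 0.003042), with 10.19, 10.42 and 11.00 against 9.29, 9.96 and 10.25. In Glyburide, also a sulfonylurea, 2 lid subunits fell. Psmd3 gave 8.19 and 8.30 at 3 d and 8.22, 8.41 and 8.30 at 5 d against 8.76, 9.09 and 9.28 in the CMC controls and fell by 0.75 (SE 0.087, limma adjusted p = 6.281e-05). Psmd6 gave 10.16 and 10.15 at 3 d and 10.17, 8.68 and 10.18 at 5 d against 10.47, 10.78 and 10.97 and fell by 0.87 (SE 0.18, limma adjusted p = 0.005207). In both, all 5 Glyburide arrays lay below all CMC controls, as they did in 5 of the 37 genes and in 2.35% of all genes. The low Psmd6 value is that of 5 d replicate 2, the array with the Gapdh difference of 3.02, and without it the change of Psmd6 in Glyburide was -0.61 (limma adjusted p = 0.0002943) and still called. Psmd3 also had changes of -0.54 in Chlorpropamide, -0.50 in Guanethidine, -0.46 in Atenolol and -0.37 in Levosulpiride, all under the fold threshold. Their limma adjusted p were 0.003405, 0.003259, 0.02026 and 0.005604. Psmc6 changed by 0.71 in Atenolol (limma adjusted p = 0.01015) without a call.

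Few of the 37 genes were called in any of these comparisons. Higher calls took 2 of the 37 genes in Atenolol (2.29% of all genes), 2 in Levosulpiride (1.93%), 1 in Chlorpropamide (1.32%) and 1 in Guanethidine (2.17%), and lower calls took 2 in Glyburide (2.86%). The constitutive median was 0.02 in Atenolol and Levosulpiride, -0.11 in Chlorpropamide, -0.03 in Guanethidine and -0.26 in Glyburide, where 6 of 30 changes were above 0. Without the array with the high Gapdh ratio it was 0.15 in Atenolol, with 4 genes called higher, -0.01 in Chlorpropamide, and -0.19 in Glyburide, with 10 of 30 above 0. The shares of all genes called without these arrays are not given here, so the count cannot be set against them. The arrays kept there had Gapdh differences of 0.25 to 0.415 in Atenolol, 0.17 to 0.38 in Chlorpropamide and 0.29 to 0.42 in Glyburide. The Water and CMC controls had at most 0.28. All Atenolol, Levosulpiride and Glyburide arrays and most of Chlorpropamide and Guanethidine came from 1 extraction batch that held no control, so that batch and treatment cannot be told apart against the controls. With the batch as a block none of the calls remained, but there the difference from the controls was set through other compounds that span batches. None remained against the other compounds of the same batches either, where the difference is between compounds. In Atenolol the difference between 5 d and 3 d was above 0 for all 30 constitutive subunits, with a median of 0.53 and 20 at an unadjusted p under 0.05, and none was called. Without 3 d replicate 1, the array with the high Gapdh ratio, 28 were above 0, with a median of 0.34 and 6 at an unadjusted p under 0.05.

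The immunoproteasome was not called in any compound. In Dicyclomine, Psmb8 gave 6.82 and 6.53 at 3 d and 5.84 and 7.01 at 5 d against a lowest of 5.99, a median of 6.67 and a highest of 7.44 in the Water controls. Psmb9 gave 6.30 and 5.99 at 3 d and 6.73 and 6.89 at 5 d against 6.07, 6.54 and 7.23, and Psmb10 gave 6.94 and 7.68 at 3 d and 7.26 and 7.29 at 5 d against 7.02, 7.25 and 7.64. In Psmb8 and Psmb9 3 of the 4 treated arrays lay within the control range, and in Psmb10 2 of the 4 did. The largest change in a Water compound was that of Psmb9 in Trimethadione, 0.71 (SE 0.20, limma adjusted p = 0.04764), with 6.99, 6.54 and 7.08 at 3 d and 7.28, 8.67 and 7.19 at 5 d. Here it was 5 d replicate 2 that stood out, also in Psmb8 (8.04), and not the array with the high constitutive subunits. In Etidronate the 3 changes were -0.39 to -0.25, all at an unadjusted p under 0.05 and none called.

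Across arrays the immunoproteasome followed the markers of immune cells in 3 arrays. CMC 5 d replicate 2, Glyburide 3 d replicate 1 and Pentoxifylline 3 d replicate 3 had a mean of the immune markers of 9.71, 9.60 and 9.48, and the other 155 arrays 5.86 to 7.01. The median difference of the immunoproteasome from the controls was 2.54, 2.33 and 2.69 in them. Psmb8 gave 9.56, 9.36 and 9.98 in these arrays against at most 8.04 elsewhere, Psmb9 9.59, 9.52 and 9.73 against at most 8.67, and Psmb10 8.39, 8.34 and 8.67 against at most 7.98. The leukocyte gene Ptprc (11.2, 11.2 and 11.1 against at most 7.48), the T cell gene Cd3e (9.24, 9.58 and 9.66 against at most 5.51) and the B cell gene Cd79b (9.83, 8.92 and 9.61 against at most 6.89) were high in the same arrays. The constitutive median of these arrays was -0.26 to -0.18. Of the 12 immune markers, 10 lay above every other array in CMC 5 d replicate 2. In Glyburide 3 d replicate 1 and Pentoxifylline 3 d replicate 3, 9 did in each.

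**Figure D5:**
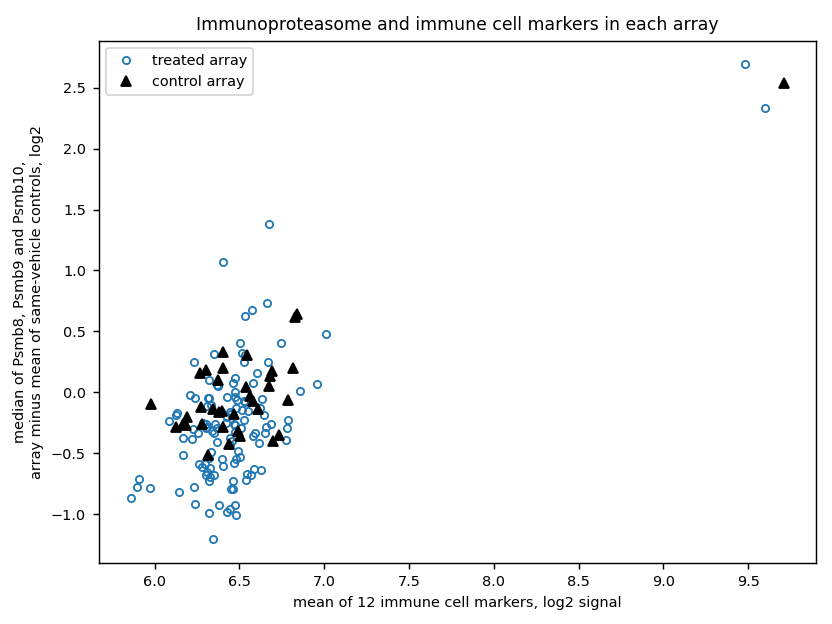
Median of Psmb8, Psmb9 and Psmb10 in each of the 158 arrays as the log2 difference from the mean of the controls of its vehicle (vertical axis), against the mean log2 signal of 12 immune cell markers (horizontal axis), with circles for treated and triangles for control arrays. The 3 arrays named above lie apart at marker means of 9.48 to 9.71.

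The correlation with the mean of the immune markers over all 158 arrays was 0.77 for Psmb8, 0.75 for Psmb9 and 0.56 for Psmb10. Over the 155 arrays without those 3 it was 0.46, 0.42 and 0.13. One of the 3 arrays is a CMC control, which bears on every compound given in CMC. The median immunoproteasome change was -0.84 in Buspirone, -0.61 in Levosulpiride and Chlorpropamide, -0.58 in Flunarizine and -0.57 in Atenolol. Without CMC 5 d replicate 2 these were -0.58, -0.37, -0.34, -0.33 and -0.32, again with no call. In Pentoxifylline the median was -0.11, and -0.76 without its 3 d replicate 3.

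Inducible and constitutive active-site subunits were compared directly as the difference of their log2 signals within an array. Psmb8 was set against Psmb5 and Psmb10 against Psmb7 in each of the 21 compounds, 42 comparisons in all, by a two-sided exact permutation test within the days. The smallest p was that of Psmb10 minus Psmb7 in Dicyclomine, which was 0.62 lower than in the controls (exact permutation p = 0.003306, 0.139 after adjustment over the 42). Psmb8 minus Psmb5 changed by -0.38 in Dicyclomine (exact permutation p = 0.175, adjusted 0.756). None of the 42 passed. Psmb9 against Psmb6 was not run because of the shared probe set. A list of 11 genes of antigen processing and interferon response had no call in Dicyclomine, with values from -0.59 (Irf7) to 0.43 (Tapbp).

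The assembly chaperones were not called over both times in Dicyclomine. Psmd5 had 0.57 (limma adjusted p = 0.02358), Psmd9 0.41 (limma adjusted p = 0.006415, under the fold threshold) and Psmd10 0.32 (limma adjusted p = 0.09333), while Psmd9 and Psmd10 were among the calls at 5 d alone. Psmc3ip had 0.14 (limma adjusted p = 0.7187). Among the controls themselves no gene was called between 5 d and 3 d or between vehicles. The constitutive median was 0.02 for 5 d against 3 d in Water and -0.09 for CMC against Water, and the immunoproteasome median was 0.39 for CMC against Water, a group that holds the CMC array with high immune markers.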

How the data were processed

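Arrays (Affymetrix Rat Genome 230 2.0) were deposited by the authors as 1 table of log2 signals, made with RMA per the submitters' processing notes; the sources used here give neither its version nor the grouping of arrays, while the study's methods name frozen RMA. Of 31099 probe sets, 20826 had 1 gene symbol (436 had several and 9780 none here), giving 14217 genes. Treated arrays were fitted against controls of the same vehicle in limma 3.58.1 (R 4.3.3), with time as a covariate and Benjamini-Hochberg adjustment over all genes. Calls needed an adjusted p of at most 0.01 and a 1.5-fold change. The fit was tested on simulated data. All members are accounted for, and values per array were given under Dicyclomine for the 2 members with the smallest p in each of the alpha, beta, ATPase, base and lid lists, the active-site and immunoproteasome subunits and Psmd14, for calls in other compounds, and for up to 4 called genes of each other list. Members and lists were chosen with earlier results of these data known. Replicate numbers follow accession order. One CMC control titled 5 d carries a 3 d label and was kept at 3 d. Alternatives were batch and hybridization blocks, a Gapdh covariate, quantile normalization, the mean over probe sets, other controls and left-out arrays. Promoters came from the RefSeq table for GRCr8, and no genome or protein sequence was used.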

Additional observations from a re-analysis of the deposited data

Results flagged for a closer look

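In 13 of 105 values tested within control groups of 4 to 10 arrays, 1 array lay far from the others by Dixon's test at the 95% level, which chance gives in about 1 in 20 groups. CMC 3 d replicate 7 was lowest in Psma3 (8.56), Psma5 (10.34) and the median of the constitutive subunits (-0.21). CMC 5 d replicate 2 was highest in Psmb8 (9.56), Psmb10 (8.39) and the immunoproteasome median (2.54) and lowest in Psmd3 (8.76), and it is the control with the high immune cell markers. CMC/SDS/Povidone 5 d replicate 4 was highest in Psmb4 (11.93), Psmc5 (11.02) and the constitutive median (0.16). In Water, 3 d replicate 8 was highest in Psma3 (9.66), 5 d replicate 9 lowest in Psmd3 (8.67) and 5 d replicate 4 highest in Psmd8 (10.28).

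The Dicyclomine change differed between 5 d and 3 d in 13 genes by the interaction term in limma: Psma4 (1.20), Psma7 (1.13), Psmb3 (1.44), Psmb5 (0.65), Psmb7 (0.73), Psmc1 (0.96), Psmc4 (1.19), Psmc5 (1.00), Psmd2 (1.09), Psmd3 (1.25), Psmd4 (1.31), Psmd6 (0.79) and Psmd13 (1.08). These were all the calls among 777 tests over the 37 genes and 21 compounds, and no other compound had one. The 3 d group holds the Dicyclomine array that lay with the controls.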

How the results depend on the processing

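Of the 26 genes called higher in Dicyclomine, 0 were called against controls of the same batch, against controls of the same study or in the 3 d arrays alone, settings with fewer arrays, and 15 to 29 with 1 array left out. All constitutive subunits stayed above 0 in the alternatives run, except Psmb5 in the 3 d arrays alone (-0.046). With 1 array left out, the uncalled changes turned sign, from -0.28 to 0.14 in Psmb8, -0.25 to 0.059 in Psmb9 and -0.15 to 0.11 in Psmb10. Psmc3ip turned to -0.0071 with the batch block, -0.12 within the batch and -0.22 against its own study. The 25 calls against the other Water compounds became 0 with the batch block and 0 to 28 with 1 array left out. The 13 genes with a difference between times became 0 within the batch and 6 to 23 with 1 array left out. In Atenolol the 2 higher calls became 0 with the batch block and against compounds of the same batches, 5 with the Gapdh covariate and 1 to 4 with 1 array left out. In Levosulpiride the 2 became 0, 0, 4 with quantile normalization and 1 with the mean over probe sets. In Chlorpropamide the 1 became 0, 0, 0 with the hybridization block and 2 with the Gapdh covariate, and lower calls were 0 to 1 with 1 array left out. In Guanethidine the 1 became 0 in all of these settings, 0 with the mean over probe sets and 0 to 2 with 1 array left out. In Glyburide the 2 lower calls became 0, 0, 1 with the Gapdh covariate and 1 to 3 with 1 array left out, and the 0 higher calls became 1 with the Gapdh covariate, 1 with quantile normalization and 0 to 1 with 1 array left out. In Etidronate the 0 became 1 with the hybridization block. Reversed were Psma3 in Chlorpropamide (-0.0031) and Levosulpiride (-0.0074) against compounds of the same batches, Psmd3 in Glyburide (0.13) with the batch block and Psmb10 minus Psmb7 in Flunarizine (-0.014) with quantile normalization. The cause of these shifts was not tested, and the shares of all genes called in most of these settings are not given here. Of the alternatives, those leaving out Water controls, single times, or arrays standing apart were chosen after seeing the data. The hybridization block could not be fitted for Atenolol, Glyburide and Levosulpiride. No paired analysis was possible because the labels carry no replicate numbers.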
